A study of Mus musculus with 2 samples.

Results

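Interferon-stimulated genes are the genes that cells switch on when interferon reaches them, and 41 of them were followed here in fetal liver erythroid progenitors given extra ESlncRNA. The members were chosen by name: every non-control probe whose gene name on the array was 1 of the 41 symbols. That gave 56 of the 55681 probes, on 74 spots, and 41 of the 36413 gene names. The cells are labelled Lin- erythroid progenitors, where Lin- stands for cells without markers of the other blood lineages. They came from fetal livers of C57BL/6 mice at stage E14.5, received either ESlncRNA or only the vector by transduction, and were sorted as GFP+. Both conditions therefore carried a vector and passed the same sort, and the labels name no interferon treatment. ESlncRNA, or lincRNA-EPS, is an erythroid long noncoding RNA, and the question was how gene expression differs once it is over-expressed. Each of 2 arrays (replicates 1 and 2) compared the conditions directly, with ESlncRNA RNA in Cy5 and vector RNA in Cy3 both times. There was no dye swap, so a dye effect of a probe would add to both of its ratios.

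Interferon signals through surface receptors and the Janus kinases Jak1, Jak2 and Tyk2 to STAT proteins. Type I and type III interferons drive a complex that holds Stat2 and Irf9 onto the interferon-stimulated response element, whereas interferon gamma acts through gamma-activated sites. The induced products degrade viral RNA, sense it, block virus entry or replication, tag proteins, and feed back on the pathway. Many of these genes also have a basal level without infection, and blood cell types differ in it.

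The promoters show which members carry the sequence that names the family. RefSeq promoter windows (GRCm38.p6, from 250 bases before to 50 bases after the start) were matched by symbol for 32 of the 41 members. The core of the response element (GAAA, any 2 bases, GAAA, on either strand, with overlapping matches counted) was found in 19 of those 32 members, against 3.99% of the 27025 genes with a window and 3.44% of all 32851 windows of that length. The longer form, in which a C follows, was found in 14 of 32 members and in 0.944% of all genes. The core of the gamma-activated site (TTC, any 3 bases, GAA) was found in 10 of 32 members and in 9.55% of all genes. A match is a description of the letters, not of binding. The 110 bases before the start of 8 members are printed 5′ to 3′ on the gene's strand, because they set members that fell beside members that gave no measurable signal. Capitals mark matches of either core on either strand, joined where they overlap. The members that fell are given before those that were dim in both channels.
Isg15 (chr4:156200819-156200928, - strand): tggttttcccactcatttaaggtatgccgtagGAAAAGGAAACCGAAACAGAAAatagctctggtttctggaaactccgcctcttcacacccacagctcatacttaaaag
Oas1a (chr5:120907526-120907635, - strand): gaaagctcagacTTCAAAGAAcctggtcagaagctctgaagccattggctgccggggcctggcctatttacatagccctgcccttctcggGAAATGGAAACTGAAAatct
Gbp3 (chr3:142559934-142560043, + strand): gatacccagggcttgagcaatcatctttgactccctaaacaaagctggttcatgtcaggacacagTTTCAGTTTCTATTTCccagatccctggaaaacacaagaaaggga
Igtp (chr11:58199446-58199555, + strand): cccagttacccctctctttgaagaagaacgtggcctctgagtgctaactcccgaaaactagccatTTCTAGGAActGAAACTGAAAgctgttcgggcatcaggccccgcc
Ifitm2 (chr7:140955962-140956071, - strand): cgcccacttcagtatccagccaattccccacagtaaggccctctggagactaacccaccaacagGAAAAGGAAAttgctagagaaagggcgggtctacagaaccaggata
Irf1 (chr11:53769904-53770013, + strand): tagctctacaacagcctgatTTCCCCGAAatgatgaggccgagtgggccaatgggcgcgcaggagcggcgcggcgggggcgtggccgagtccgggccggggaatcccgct
Oas1g (chr5:120887614-120887723, - strand): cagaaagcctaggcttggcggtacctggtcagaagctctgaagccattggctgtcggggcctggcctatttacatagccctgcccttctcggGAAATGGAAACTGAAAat
Ifit1 (chr19:34640779-34640888, + strand): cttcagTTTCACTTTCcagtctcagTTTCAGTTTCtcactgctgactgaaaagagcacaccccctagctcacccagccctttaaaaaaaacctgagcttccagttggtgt
Isg15 had 3 overlapping response-element cores in its window, while Irf1 had only the gamma-activated core. Over the 250 bases before the start, the neighbouring paralogues Oas1a and Oas1g shared 212 identical bases in an alignment of 256 positions. Both carried the same run of overlapping cores next to the start. Their array values nevertheless differed: Oas1a was well above background and fell, and Oas1g was not well above background in either channel.

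The over-expressed RNA was seen. The lincRNA interval chr4:109071198-109078776 (mm9, forward strand), between the probes of Eps15 and Ttc39a that flank lincRNA-EPS in RefSeq, had log2 ratios of 2.22 and 2.19 at its brightest probe, at least 4.62-fold higher, a bound because vector signal there did not clear background (limma, adjusted p = 2.16e-07). Of the 10 probes of that interval and its shorter form, 8 rose. Median spot signals were 35.9 to 39.5 for vector and 67.8 to 76.3 for ESlncRNA, and 44.4% to 52.1% of spots were well above background. The log2 ratios of the arrays correlated at r = 0.983 across 19892 genes, which are not independent replicates. Over 120 probes with 10 unmarked spots on each array, probe means differed between arrays by a median of 0.024, and the spread between spots alone gives 0.0247. Nothing in the labels says whether separate cultures or animals lie behind the replicates. Some bright erythroid genes differed far more between arrays: Slc4a1 had log2 ratios of -0.45 and 1.48, with vector signals of 2221 and 322.4, and Alas2 had -0.02 and 0.77. The p-values therefore describe only the difference between 2 arrays, and how many independent RNA samples lie behind each condition cannot be told.

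More members fell than rose, and the falls were the larger changes. A member was called when limma's adjusted p over all 26791 probes tested was under 0.05, and "fell" and "rose" are used only for called genes. Of the 41 members, 34 could be tested, namely those whose probe exceeded background clearly, on each array, in the vector or the ESlncRNA channel. Of these 34, 23 fell (67.6%, against 36.8% of all 19892 genes tested), 7 rose (20.6%, against 26.3%) and 4 did not pass. A ratio at least 2-fold lower on each array was seen in 10 members (29.4%, against 8.11% of all genes), and 0 were at least 2-fold higher on each (against 0.603%). The median log2 ratio of the tested members was -0.71, and that of all genes was -0.03. All 34 tested members had the same sign on both arrays.

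Detection divided the members. In 26 members both channels were well above background on both arrays, and of these 16 fell, 6 rose and 4 did not pass. With the fit limited to probes passing in both channels on both arrays, 5911 of 17254 genes fell and 5013 rose. The members' counts stayed at 16 and 6, with a median log2 ratio of -0.49, against -0.005 for all genes in that fit. A further 7 tested members fell with the ESlncRNA channel not well above background, so their folds are lower bounds, written "at least". They passed the filter only through the vector channel, so the filter itself favoured a fall. Zbp1 rose with the vector channel not well above background, likewise a bound. It passed only through the ESlncRNA channel, so the filter favoured a rise. The counts of 23 that fell and 7 that rose, and the median of -0.71, include these members. Rtp4, which passed only through the vector channel, is also among the 10 members at least 2-fold lower. The remaining 7 were not tested: Ifit1, Oas1g, Oas3, Mx1, Mx2 and Ifi44 were not well above background in either channel, and Ifit3 passed only in the vector channel of 1 array. With the bounds in place of the fitted values the median was -0.69.

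**Figure D1:**
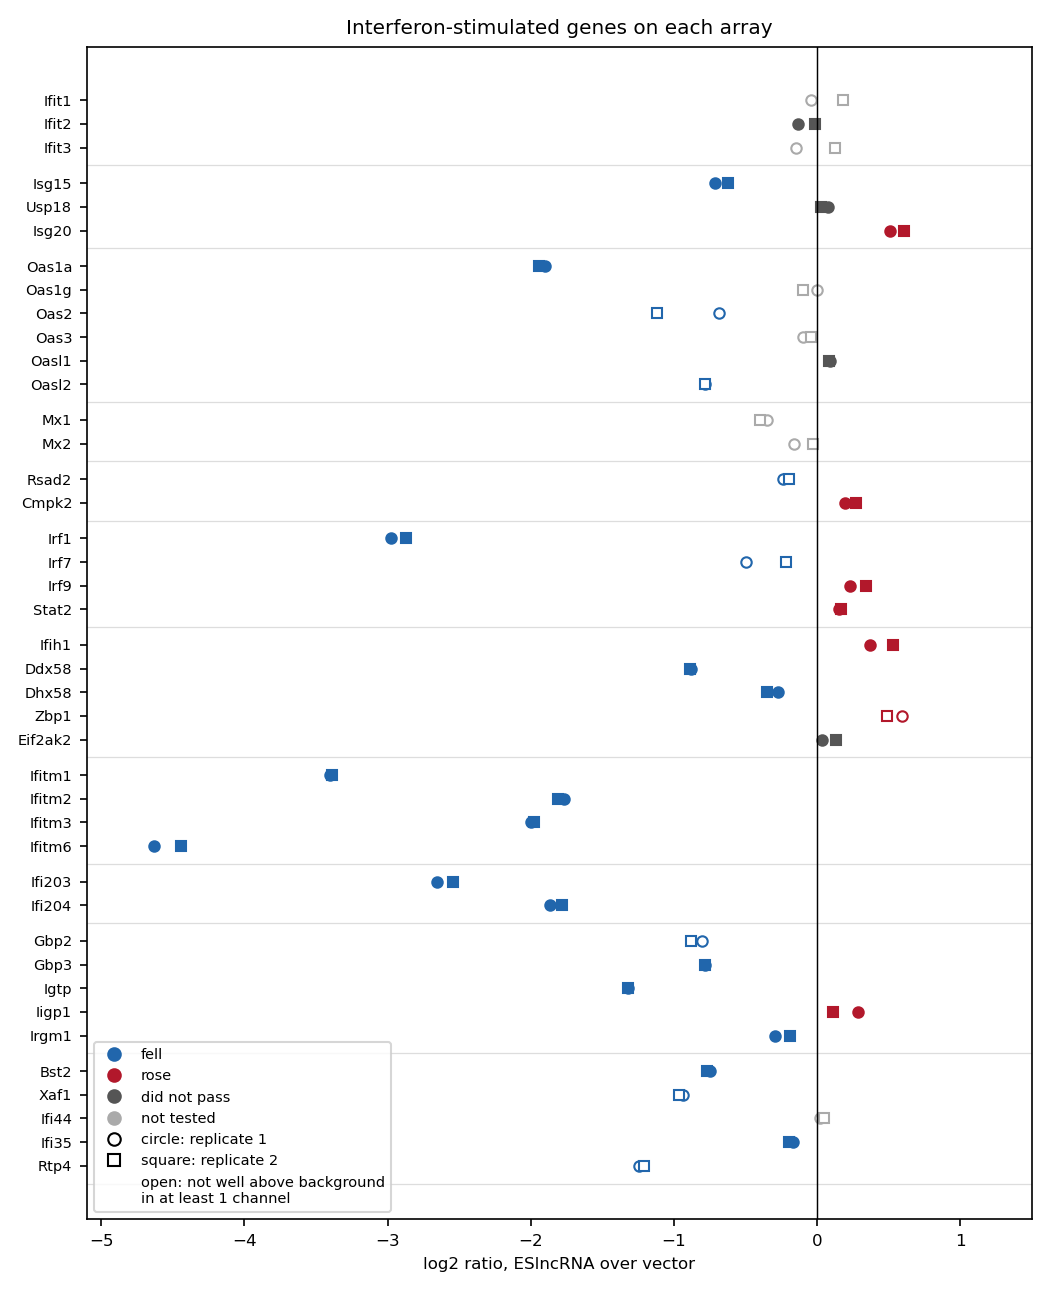
Log2 ratio of ESlncRNA over vector for each of the 41 members, grouped by family or role as in the text; circles are replicate 1 and squares replicate 2, colours give the call, and open symbols mark members not well above background in at least 1 channel. The 4 IFITM genes, Irf1, Ifi203, Ifi204 and Oas1a lie farthest to the left, and no member lies above 1.

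Markers of other blood cells moved on the same arrays. Granulocyte markers fell in 15 of 15 tested genes (median log2 ratio -4.29), and their summed signal was 1187000 and 1322000 in vector against 70700 and 84470 in ESlncRNA. The brightest were S100a9 (mean -5.25) and Mpo (-4.38). Macrophage and monocyte markers fell in 14 of 14 tested of 17 on the array (median -1.60), from summed signals of 19420 and 19200 to 3026 and 3007, with C1qa and Cd163 not well above background in either channel. Only 7 of the 14 had both channels well above background on both arrays. The rest passed the filter only through the vector channel, so the filter itself favoured their fall. Csf1r (-3.31) and Mpeg1 (-2.44) were the brightest of the list. Pan-leukocyte markers fell in 10 of 10 (median -2.81), among them Arhgdib (-1.11) and Coro1a (-2.48).

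The lists of other cell types did not all move the same way. Among all genes tested 36.8% fell and 26.3% rose. Megakaryocyte and platelet markers fell in 11 of 11 (median -1.85), endothelial and stromal markers in 12 of 13 (median -0.99) and hepatocyte markers in 7 of 9 (median -0.69). Of the plasmacytoid dendritic cell markers, whose list shares Bst2 with the members, 5 of 7 tested fell (median -0.23), and Ly6d, Klk1 and Spib were not well above background. Of the 6 lymphocyte markers tested, 3 fell, among them Cd79b (-3.54) and Nkg7 (-2.63), and 2 rose. Cd79a, Cd3g, Cd8a, Rag1 and Ncr1 were among those not well above background. Some falls in these lists came with only the vector channel well above background, so the filter itself favoured them. These were 5 endothelial and stromal, 2 hepatocyte, 3 plasmacytoid dendritic cell and 1 lymphocyte marker. Erythroid markers, those of the labelled cell type, were all well above background in both channels. Of these 17, 13 rose (median 0.68) with summed signals of 584900 and 493600 in vector against 868600 and 765900 in ESlncRNA. All 15 granulocyte markers were also well above background in both channels, so erythroid signal alone does not show that other cell types were absent. In bulk RNA, fewer cells of a type and less RNA per cell cannot be told apart, and the part of these cell types in the members' ratios was not tested.

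**Figure D2:**
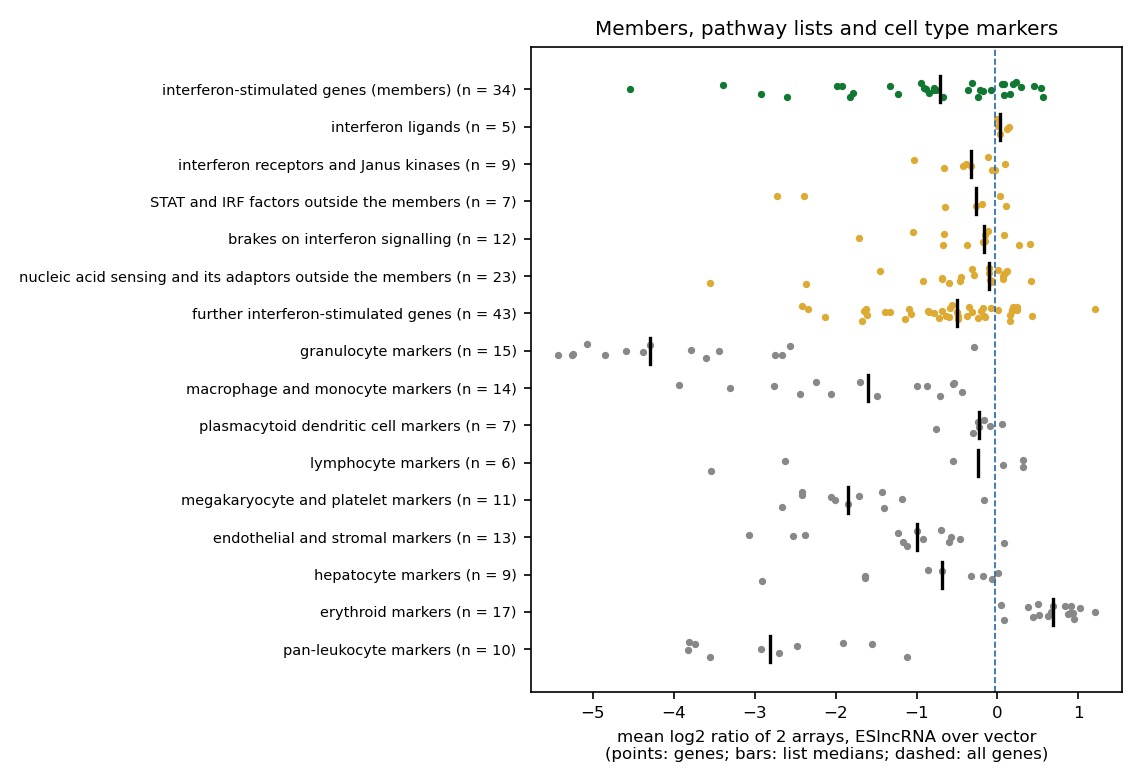
Mean log2 ratio of 2 arrays for every gene tested among the members (green), the interferon pathway lists (yellow) and the cell type markers (grey); black bars are list medians and the dashed line is the median of all genes tested (-0.03). The members' median of -0.71 lies between those of the erythroid (0.68) and the granulocyte markers (-4.29).

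The IFITM family, small membrane proteins that hinder entry of viruses into cells, held the largest falls. Ifitm6 (probe at chr7:148201714-148201773, mm9, as are all probe positions) had a normalised signal of 3220 and 3104 in vector and 129.7 and 142.8 in ESlncRNA, so the conditions were far apart on both arrays. Its log2 ratio was -4.54 ± 0.14 (SD, n = 2 arrays), 23.2-fold lower, with limma's adjusted p = 5.94e-08. Ifitm1 (chr7:148155659-148155718) stood at 12750 and 12820 in vector and at 1206 and 1223 in ESlncRNA. It was 10.5-fold lower (log2 ratio -3.40 ± 0.0088, adjusted p = 6.38e-08), and its arrays were nearly equal.

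Ifitm3, the family member best known for blocking influenza virus, went from 2651 and 2692 to 663.8 and 682.8, 3.97-fold lower (log2 ratio -1.99 ± 0.013, adjusted p = 3.16e-07). Ifitm2 went from 9130 and 9463 to 2680 and 2699, 3.46-fold lower (log2 ratio -1.79 ± 0.029, adjusted p = 5.06e-07). Both conditions stayed well above background for all 4 genes, and no array of one condition overlapped the other. Here and below, a lack of overlap only describes the printed signals of 2 arrays. The share of all genes that lack overlap was not counted, and the fit pairs the channels within each array. Response-element cores were present in the windows of Ifitm2 and Ifitm3 and not in those of Ifitm1 and Ifitm6, the pair with the larger falls. The gamma-activated core was present in the windows of Ifitm3 and Ifitm6.

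The 4 IFITM probes lie side by side on chromosome 7, and their neighbours were compared by position. Within 100 kb of the outermost probes 7 other RefSeq genes were tested. Of these 6 fell, against 36.8% of all genes tested. They ranged from -0.19 for Pkp3, a desmosome protein, to -1.31 for Sigirr, an inhibitory receptor of the interleukin-1 receptor family. Psmd13, a proteasome subunit, did not pass (-0.13). On each array all 4 IFITM genes had lower ratios than each of the 7 neighbours.

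**Figure D3:**
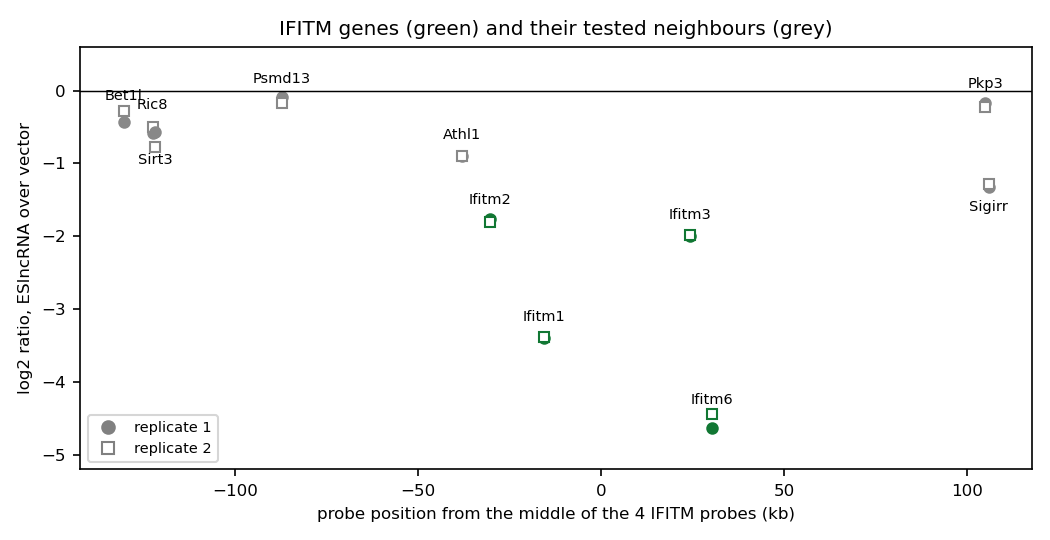
Log2 ratio of ESlncRNA over vector against distance in kb from the middle of the 4 IFITM probes; green symbols are IFITM genes, grey symbols the 7 tested neighbours, filled circles replicate 1 and open squares replicate 2. The IFITM genes lie between -1.77 and -4.63, and the lowest neighbour, Sigirr, at -1.33 and -1.29.

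The IFI200 family, nuclear proteins with DNA-binding HIN domains, fell in both members. Ifi203 (chr1:175850536-175850595) had signals of 550.6 and 579.7 in vector and 87.64 and 99.62 in ESlncRNA, 6.05-fold lower (log2 ratio -2.60 ± 0.078, adjusted p = 1.64e-07). Its size depended on the processing, with log2 ratios from -3.86 to -2.32 over the 9 tested alternatives. Ifi204, a sensor of foreign DNA, went from 522.1 and 488.9 to 143.4 and 142.5, 3.53-fold lower (log2 ratio -1.82 ± 0.06, adjusted p = 5.71e-07). The conditions did not overlap in either gene. In the same cluster Mndal (-2.11) and Mnda (-1.01) also fell, and E430029J22Rik rose (0.35). Genes of this cluster are close copies of each other, so a probe may read more than its named gene.

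Among the transcription factors, Irf1 fell strongly, Irf7 fell less, and Irf9 and Stat2 rose. Irf1 is an activator of many interferon targets and is itself induced through gamma-activated sites, the core printed in its window. At chr11:53590746-53590805 its signal was 1424 and 1342 in vector and 181.4 and 183.6 in ESlncRNA, with no overlap. The log2 ratio was -2.92 ± 0.073, 7.58-fold lower (adjusted p = 1.1e-07). Irf7, the factor that amplifies type I interferon production, fell by 0.36 ± 0.2 (adjusted p = 0.00576), at least 1.28-fold, with its ESlncRNA channel not well above background. Without replicate 1 its log2 ratio was -0.22, and it did not pass with processed signals (adjusted p = 0.0805) or in the authors' deposited table (adjusted p = 0.125).

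Irf9 and Stat2, which act at the response element, rose slightly. Irf9 had signals of 2380 and 2136 in vector and 2795 and 2705 in ESlncRNA, a log2 ratio of 0.29 ± 0.077 (adjusted p = 0.00353). Stat2 had 1141 and 1206 in vector and 1271 and 1353 in ESlncRNA, a log2 ratio of 0.16 ± 0.0079 (adjusted p = 0.0252). Each ESlncRNA value exceeded both vector values, but Stat2 passed in only 4 of 9 alternative analyses.

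The OAS enzymes make the second messenger that switches on RNase L. Oas1a (chr5:121346735-121346794) had signals of 1077 and 1075 in vector and 287.8 and 279.4 in ESlncRNA. It was 3.79-fold lower (log2 ratio -1.92 ± 0.028, adjusted p = 3.74e-07), and its other probe also fell (-0.99). Oas2 went from 124.2 and 133.4 to 77.08 and 61.41, at least 1.68-fold lower, with arrays apart at -0.69 and -1.12 (adjusted p = 0.000342), and it did not pass with processed signals (adjusted p = 0.0622). Oasl2 went from 129.2 and 118.8 to 75.2 and 69.18, at least 1.64-fold lower (adjusted p = 2.16e-05). In both genes the ESlncRNA channel was not well above background.

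The other family members did not pass or could not be tested. Oasl1, a close relative without synthetase activity, had log2 ratios of 0.09 on each array and did not pass (adjusted p = 0.158). Oas1g, on 2 probes, and Oas3 gave no measurable fold. Of the other Oas1 copies and neighbours within 100 kb of the Oas1 to Oas3 probes, Oas1f (-0.94), Oas1c (-0.50), Oas1b (-0.30) and Rasal1 (-0.51) fell, Oas1d rose (0.15) and Oas1e did not pass. Copies this similar can share signal between probes.

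The ISG15 system split. Isg15, a ubiquitin-like protein joined to other proteins, had signals of 402.6 and 346.2 in vector and 246 and 224.8 in ESlncRNA. The groups did not overlap, and the gene was 1.59-fold lower (log2 ratio -0.67 ± 0.062, adjusted p = 6.17e-05). Usp18, the protease that removes ISG15 and restrains the receptor, had log2 ratios of 0.08 and 0.03 and did not pass (adjusted p = 0.396). Isg20, an RNA exonuclease, rose: its signals were 5092 and 5375 in vector and 7255 and 8199 in ESlncRNA, 1.47-fold higher (log2 ratio 0.56 ± 0.07, adjusted p = 0.000154). Its other probe rose by 0.51.

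The IFIT and MX families and viperin, often the most induced genes after interferon, had at most small ratios or could not be tested. Ifit2, which binds RNA and limits translation, had signals of 172.6 and 175.5 in vector and 157.7 and 173.5 in ESlncRNA, and did not pass (log2 ratio -0.07 ± 0.081, adjusted p = 0.263). Ifit1, Ifit3, Mx1 and Mx2 could not be tested. The printed window of Ifit1 holds its response-element cores, so a member can carry them and still give no measurable signal here. Rsad2, which encodes viperin, an enzyme that makes a chain-ending nucleotide, fell by 0.22 ± 0.027 (at least 1.16-fold, adjusted p = 0.00806). Its chromosomal neighbour Cmpk2, a nucleotide kinase, rose by 0.23 ± 0.052 (adjusted p = 0.00695), while the other Cmpk2 probe did not pass (0.07). Cmpk2 also did not pass in the authors' deposited table (adjusted p = 0.0616).

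The sensors of viral nucleic acid moved in different directions. Ddx58, which encodes the RNA sensor RIG-I, had signals of 296.8 and 382.5 in vector and 161 and 206.6 in ESlncRNA, 1.85-fold lower (log2 ratio -0.89 ± 0.0043, adjusted p = 1.17e-05). Dhx58, the relative LGP2 that tunes RIG-I, fell by 0.31 ± 0.052 (adjusted p = 0.00193), but did not pass with median centring (-0.11) or with processed signals (-0.26). Ifih1, which encodes the RNA sensor MDA5, rose from 617.8 and 596.7 to 797.1 and 861.9, 1.37-fold (log2 ratio 0.45 ± 0.12, adjusted p = 0.00072). In Ddx58 and in Ifih1 the conditions did not overlap.

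Zbp1, a sensor of left-handed nucleic acid, had signals of 68.87 and 71.21 in vector, not well above background, and of 103.9 and 99.63 in ESlncRNA. It was at least 1.37-fold higher (log2 ratio 0.54 ± 0.077, adjusted p = 0.000198). Eif2ak2, the RNA-dependent kinase PKR that halts translation, had 515.6 and 556.6 in vector and 527.7 and 609.1 in ESlncRNA and did not pass (0.08 ± 0.068, adjusted p = 0.209).

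Of the interferon-inducible GTPases, which attack the vacuoles of intracellular microbes, 4 of 5 fell, against 36.8% of all genes tested. Igtp had signals of 614.6 and 641.4 in vector and 245.9 and 256.2 in ESlncRNA, 2.50-fold lower with arrays at -1.32 and -1.32 (adjusted p = 1.76e-06). Gbp3 went from 287.2 and 226.1 to 166.6 and 131.1, 1.72-fold lower (adjusted p = 2.08e-05). Gbp2 went from 137 and 145.9 to 78.63 and 79.36, at least 1.79-fold lower (adjusted p = 1.92e-05). These 3 genes showed no overlap between conditions, which is a description only, as for the IFITM genes. Gbp6, which lies beside Gbp2 and Gbp3, fell too (-0.72).

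The other members of the group had small ratios. Irgm1, a regulator of the others, fell by 0.24 ± 0.077 (adjusted p = 0.00729), but its other probe did not pass (-0.11) and its sign turned with median centring (0.29). Iigp1 rose by 0.20 ± 0.12 (adjusted p = 0.0265), with arrays at 0.28 and 0.11, and passed in 5 of 9 alternatives.

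Of the other members, Rtp4, a chaperone-like protein, had signals of 181.5 and 163.9 in vector and 76.59 and 70.81 in ESlncRNA, at least 2.26-fold lower (log2 ratio -1.23 ± 0.024, adjusted p = 2.59e-06). Xaf1, a promoter of apoptosis, went from 135.3 and 139.6 to 70.81 and 71.53, at least 1.82-fold lower (adjusted p = 8.78e-06). Bst2, or tetherin, which holds budding virus at the cell surface, went from 10460 and 10380 to 6219 and 6093, 1.69-fold lower (log2 ratio -0.76 ± 0.013, adjusted p = 2.5e-05), but did not pass with median centring (-0.09, adjusted p = 0.343). The conditions did not overlap in these 3 genes. Ifi35 fell by 0.18 ± 0.02 (adjusted p = 0.0163), with overlapping signals between arrays (3760 and 3182 against 3349 and 2778), and its sign turned with median centring (0.39).

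Several members had more than 1 probe. The other Ifi203 probe tested also fell (-2.11), and its 2 further probes were not well above background in either channel. The other probes of Isg15, Ddx58, Ifih1, Irf1, Iigp1, Xaf1 and Zbp1 did not pass the filter on background, so each of those calls rests on 1 probe. The untested probes of Zbp1 (-0.13), Ifih1 (-0.10), Irf1 (0.03) and Xaf1 (0.07) had the sign opposite to the call. Those of Isg15 (-0.26), Ddx58 (-0.07) and Iigp1 (0.20) had the same sign. The untested Irf1 probe carries the accession of another transcript variant.

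**Figure D4:**
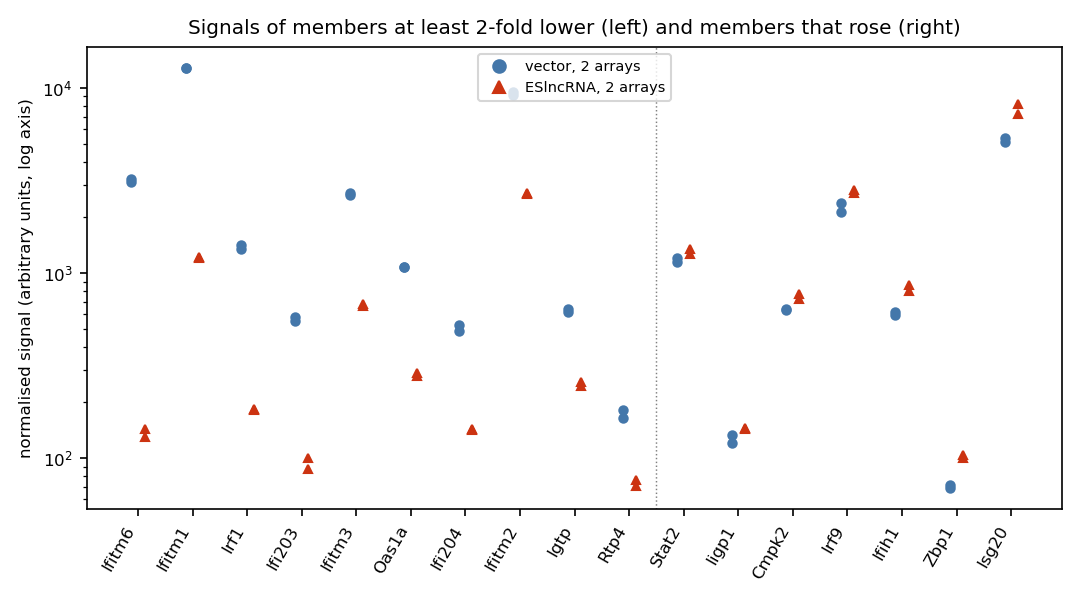
Normalised signal on a log axis for the 10 members at least 2-fold lower on both arrays (left of the dotted line) and the 7 members that rose (right); blue circles are vector and red triangles ESlncRNA, 1 symbol per array, and levels are not comparable between probes. Ifitm6 spans 3220 to 129.7, whereas Isg20 lies at 5092 and 5375 against 7255 and 8199.

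Response-element cores were found among falling and non-falling members. With a match were 12 of 19 members that fell, 2 of 5 that rose, 1 of 3 that did not pass and 4 of 5 that could not be tested. The 15 tested members with a match had a median log2 ratio of -0.79, and the 12 without had -0.27. With the longer core the medians were -0.76 (11 members) and -0.57 (16 members). The gamma-activated core split the tested members in the same direction, at -1.04 (10 with a match) and -0.67 (17 without). No test was made between these sets.

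The ligands gave little signal. Of 19 interferon genes listed, 15 were on the array, and Ifnb1 and Ifng were among 8 not well above background in either channel. The 5 tested, Ifna1 (0.12), Ifna12 (0.03), Ifna14 (0.00), Ifnab (0.14) and Ifnl3 (0.01), did not pass.

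Nearly all receptors and kinases were well above background in both channels (8 of 9). Of the 9 tested, 5 fell, 0 rose and 4 did not pass (median -0.33). Among all genes tested 36.8% fell and 26.3% rose, with a median of -0.03. The shared type I receptor chain Ifnar1 (-0.11) and the interferon gamma receptor chain Ifngr1 (-0.03) did not pass. Ifnar2 fell by 0.42 ± 0.004 and Ifngr2 by 0.33 ± 0.062, but both turned positive with median centring (0.14 and 0.20). The type III receptor chain Ifnlr1 was at least 2.05-fold lower, and Tyk2 fell by 0.66 ± 0.04 (adjusted p = 5.4e-05).

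Of 7 STAT and IRF factors outside the members, 5 fell, against 36.8% of all genes tested. Irf8, which directs monocyte and dendritic cell development, had signals of 2425 and 2680 in vector and 353.5 and 422.9 in ESlncRNA, 6.59-fold lower (adjusted p = 1.45e-07). Irf5, a driver of myeloid cytokine genes, went from 503.4 and 511.3 to 97.97 and 95.54, 5.24-fold lower (adjusted p = 1.69e-07). Stat3 fell by 0.64 ± 0.016.

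Of 12 brakes on the pathway, 7 fell and 2 rose (median -0.17), against 36.8% and 26.3% of all genes tested. The phosphatase Ptpn6 was 3.26-fold lower, the cytokine-signalling suppressor Socs1 2.05-fold lower, and the corepressor Irf2bp2 fell by 0.66 ± 0.045, with a positive value under median centring (0.11). Trim24 rose by 0.40 ± 0.078 and the phosphatase Ptpn2 by 0.27 ± 0.03. Of 23 genes of nucleic acid sensing and its adaptors, 11 fell and 1 rose (median -0.11). The shares of all genes tested were 36.8% and 26.3%, and their median was -0.03. Tmem173, the adaptor STING that carries the cytosolic DNA signal, had signals of 2951 and 3080 in vector and 245.8 and 268.2 in ESlncRNA, 11.7-fold lower (adjusted p = 6.31e-08). Unc93b1, which escorts endosomal Toll-like receptors, was 5.14-fold lower, and the kinase gene Ikbke at least 2.74-fold lower. The DNA receptor Tlr9 rose by 0.42 ± 0.12.

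A further 43 interferon-stimulated genes outside the members were tested, and 30 fell, 9 rose and 4 did not pass (median -0.50). Ifi47, another interferon-inducible GTPase, was 5.35-fold lower, the immunoproteasome subunit Psmb8 5.07-fold lower, and Slfn2 4.37-fold lower. Ifi30, a lysosomal thiol reductase, rose from 2514 and 2694 to 5830 and 6167, 2.30-fold (adjusted p = 2.75e-06). Lgals9 (0.43) and Cxcl11 (0.25) rose less. The Cxcl11 probe was very bright, with 121800 and 117300 in vector and 142800 and 140700 in ESlncRNA. Whether it reads only Cxcl11 was not tested. Over all these pathway lists 58 of 99 genes tested fell (58.6%, against 36.8% of all genes) and 12 rose (12.1%, against 26.3%). The 58 include genes, such as Ifnlr1 and Ikbke, that passed the filter only through the vector channel, so the filter favoured their fall. With median centring 32 fell and 45 rose, where 77.5% of all calls were higher. Irf8, Irf5, Tmem173, Unc93b1 and Ptpn6 are also genes of myeloid or other white blood cells, and the part of the cell type markers given above in their ratios was not tested.

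The scaling of the arrays turned the sign of some small falls and of none of the 10 falls of at least 2-fold. With median centring in place of loess the median of all genes was 0.34, with 77.5% of calls higher against 41.7%. The members then counted 19 that fell and 12 that rose (38.7% of calls higher, against 23.3%), with a median of -0.34, and relative to all genes their median was -0.68 in both analyses. With the scanner software's processed signals 18 fell and 10 rose, with a median of -0.77 and 0.11 for all genes, where 59.2% of all calls and 35.7% of the members' calls were higher. Of the 23 members that fell, 17 fell in each of the 9 tested alternatives that held them, and Irgm1 and Ifi35 turned sign. Of the 7 that rose, Isg20, Irf9, Ifih1 and Zbp1 rose in each.

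**Figure D5:**
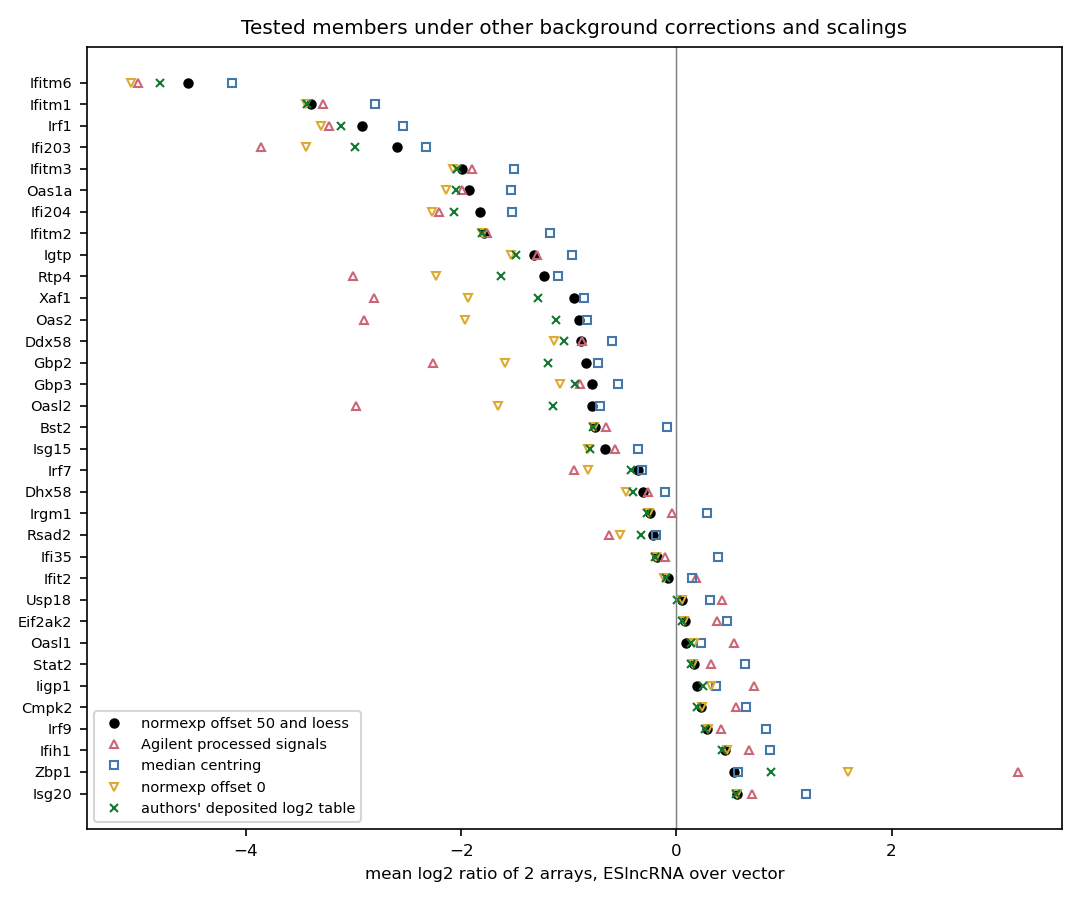
Mean log2 ratio of the 34 tested members under the main analysis (black, normexp offset 50 and loess) and 4 alternatives; each row is a gene and each symbol an analysis. Members such as Rtp4, Oas2, Oasl2 and Zbp1, not well above background in 1 channel, are among those that shift most, and median centring moves nearly all genes to the right.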

How the data were processed

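Per the labels' protocols, the QuickAmp kit was used to label the RNA, from 100 ng in replicate 2. Per the file headers, Feature Extraction (version 10.1.1.1) read the scans. The deposited spot intensities used were uncorrected mean signals and median local backgrounds; Feature Extraction's processed intensities were an alternative. The authors' deposited log2 values have medians of -0.02 and -0.01. Limma is named for them in the submitters' processing notes, without a version. They correlated at r = 0.99996 with loess log2 ratios of Cy5 over Cy3 computed without background subtraction, which gave their direction. A correlation is the same on any log scale, so it does not give theirs. The authors' deposited log10 ratios, a check of direction, correlated at 0.985 and 0.992 with ratios of the processed intensities.

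Background was corrected here with normexp (offset 50), followed by loess within arrays, using limma 3.58.1 in R 4.3.3. Control spots and marked spots (284 and 308 of 59305) had weight 0, and 0 spots were saturated. Spots were averaged per probe. A probe was fitted if on each array the vector or the ESlncRNA channel was well above background (26791 of 55681). The model had an intercept only, with 1 residual and 5.27 prior degrees of freedom, Benjamini-Hochberg adjustment over all probes fitted, and 0.05 as threshold. A gene was represented by its brightest fitted probe. Signals are after loess and Aquantile and include the offset. For a bound, the dim channel was raised to the lowest signal that counted as well above background on its array (70.98 to 77.66) where it lay under it; where it did not, as in Gbp2, Rsad2, Ifnlr1, Ikbke and the lincRNA interval, the bound equals the fitted fold. Bounds are open to dye bias. Probe positions are the array files' (mm9). Older gene names were matched through RefSeq.

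The members, gene lists and alternatives were chosen with earlier results of these data known. Genes named are all members, up to 3 rising and 3 falling genes of smallest p in each pathway list, the 2 brightest genes of marker lists given in detail, ligands tested and the receptor chains; some genes are not reported here. Neighbours were taken by position. On data simulated for this comparison (26791 probes, 50 changed per size), the fit recovered 4%, 96%, 100% and 100% of changes of 0.25, 0.5, 1 and 2 on the log2 scale. So few changed probes make the adjusted threshold stricter than in the data, where 7315 of 19892 genes fell and 5230 rose. The recovered shares therefore do not give the power for the members, and Stat2 was called at 0.16. Both arrays lay on 1 slide, so slide could not be tested.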

Additional observations from a re-analysis of the deposited data

How the results depend on the processing

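The number of arrays limits the precision, and dim members have only bounds. The members' median of -0.71 was -0.82 with normexp offset 0, -0.78 without background subtraction, -0.77 with processed signals, -0.34 with median centring, -0.31 without the filter on background (41 members), -0.49 with both channels required above background (26 members) and -0.79 in the authors' deposited table. Leaving out replicate 1 or 2 gave -0.70 each time. With offset 0, 16 members were at least 2-fold lower on both arrays. Members that rose numbered 12 with median centring and 4 in the authors' deposited table. Pathway genes that rose (12) numbered 21 with processed signals, 45 with median centring and 7 in separate channels with no replicate block; those that fell (58) numbered 32 with median centring. Median centring turned Irgm1 (0.29), Ifi35 (0.39), Ifnar2 (0.14), Ifngr2 (0.20) and Irf2bp2 (0.11) positive. The count of members that fell lay between 16 and 24 under the 9 tested alternatives. The cause of these shifts was not tested.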
